A study of Caenorhabditis elegans with 8 samples.

Results

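The genes described here encode the gap junctions that couple oocytes to the gonadal sheath of Caenorhabditis elegans, the sheath transcription factors, and the receptor and signalling proteins through which sperm trigger oocyte maturation. There were 10 of them among 17076 genes in the deposited table, chosen by symbol and found there through their WormBase gene IDs. They are the innexins inx-8, inx-9, inx-14, inx-21 and inx-22, the sheath factors lim-7 and ceh-18, and the sperm-signal genes vab-1, gsa-1 and acy-4. All 10 were measured in every library and passed the filter on low values.

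Innexins are the gap junction proteins of invertebrates. In the worm gonad, INX-8 and INX-9 form hemichannels on the somatic sheath cells, the smooth-muscle-like cells that wrap the germline. They dock with germline hemichannels that hold INX-14 together with INX-21 or INX-22. INX-14 with INX-21 is known for its part in germ cell proliferation, and INX-14 with INX-22 for holding oocytes in meiotic arrest when sperm are absent. Major sperm protein relieves that arrest. It acts through the stimulatory G protein GSA-1 and the adenylate cyclase ACY-4 in the sheath, and it also binds the Eph receptor VAB-1, which restrains maturation. LIM-7 is a LIM homeodomain protein of the sheath, and CEH-18 is a POU homeodomain protein needed for sheath differentiation.

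Poly(A)-selected RNA came from whole hermaphrodite worms of N2, the common wild-type laboratory strain, and no treatment other than age is labelled in either group. Larvae synchronized at their first stage were grown on the bacterium OP50 at one temperature, for 60 h in the group labelled adult day 1 and for 180 h in the group labelled adult day 5. The design text gives both groups the code of day 5, and groups were taken from the sample titles, which match the labelled ages. The labelled culture times lie further apart than the labelled adult days, so the exact stage of either group is uncertain. The 4 libraries of an age carry batch labels 1 to 4, with 19345868 to 22305681 reads assigned to the listed genes. The comparison asked which transcripts differ between the ages. Separate cultures are not stated, and each p-value below therefore reflects how far these libraries scatter, possibly for technical reasons.

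Levels are normalised read counts, meaning reads divided by 1 size factor per library, and each mean carries its SD over 4 libraries (n = 4). Levels of different genes are ranked only per kilobase (kb) of exon. Ratios between genes, summed levels and percentages of the oocyte marker sum use counts not corrected for length. A log2 difference is the day 5 mean less the day 1 mean of log2(value + 1), with the standard error (SE) of limma. A gene was called where the limma p adjusted over all 16739 genes tested was under 0.05. The 10 genes and the gene lists below were chosen with earlier results of these data known. Their shares called therefore describe these libraries and test nothing. Because RNA came from whole worms, fewer cells of a type and less RNA per cell cannot be told apart. Markers of the other tissues in these worms also differed between the ages. All 10 oocyte markers rose, and their summed level was 1461 to 4849 at day 1 and 111839 to 183983 at day 5. All 10 larval moult markers fell, from a sum of 22906 to 84083 down to 3446 to 9732, so ageing of the adult cannot be told apart from the end of larval development. All 10 body muscle markers fell as well, from a sum of 219874 to 319463 down to 42574 to 89501. Of 10 neuronal markers 2 rose and 6 fell, and of 10 pharyngeal markers 8 fell. All 6 yolk protein genes rose, from a sum of 111 to 4415 at day 1 up to 589523 to 1297256 at day 5. None of the 10 sperm markers was called, and their sum ranged from 385 to 5716 at day 1 and from 725 to 2515 at day 5.

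All 5 gonad innexins and the receptor vab-1 rose at day 5, ceh-18 fell, and lim-7, acy-4 and gsa-1 were not called. The 6 called higher stand against 28.8% of all genes tested, the 1 called lower against 26.8%, and the 7 called in either direction against 55.6%. The same 7 were called by the count tests edgeR and DESeq2, which called 55.6% and 58.0% of all genes. They also had groups that did not overlap, 6 upward against 27.6% of all genes and 1 downward against 25.2%, or 7 against 52.8% in either direction. The median log2 difference of the 10 genes was 1.84, and that of all genes tested was -0.06. Among the 10 genes, the gap junction genes and the Eph receptor gene were thus called higher, and lim-7, ceh-18, gsa-1 and acy-4 were not. The part of the oocyte markers in these differences was not tested.

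**Figure D1:**
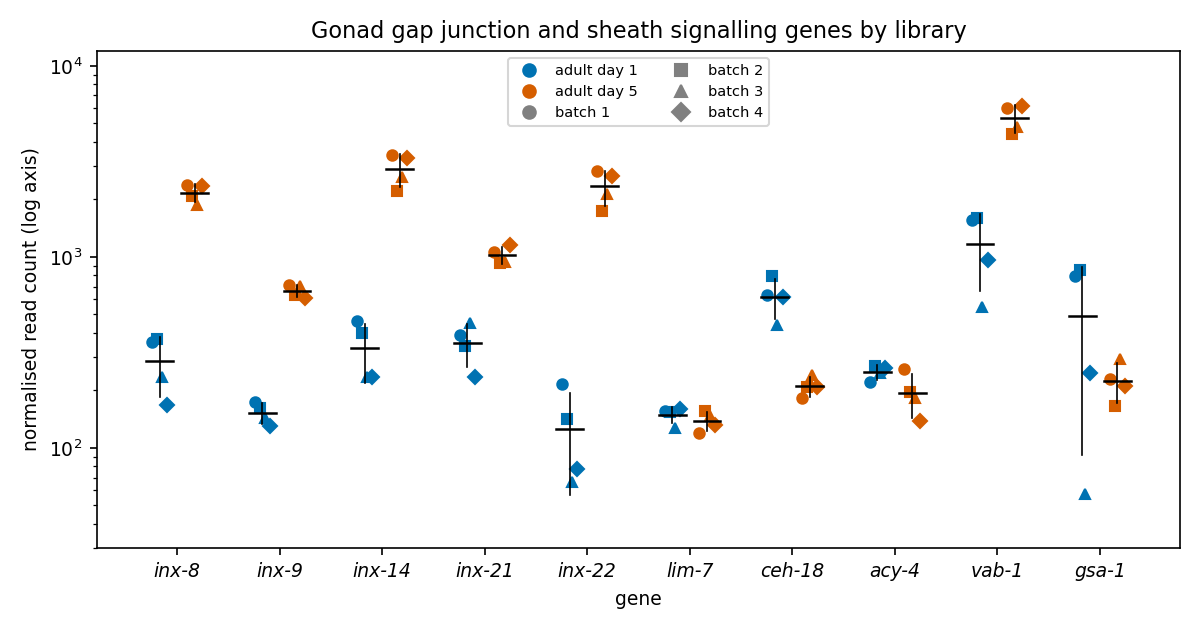
Normalised read count of each gene (log axis) in the 4 adult day 1 libraries (blue) and the 4 adult day 5 libraries (orange), with marker shapes for the labelled batches, horizontal bars for means and vertical bars for SD. The ages do not overlap for the 5 innexins, ceh-18 and vab-1, and the day 1 values of gsa-1 run from 57.2 to 856.

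Among the germline innexins, inx-22 had the largest difference of the 10 genes. inx-22 (WBGene00002144; WBcel235 chromosome I, 3608518 to 3611844, plus strand) was at 215, 142, 66.0 and 77.5 in batches 1 to 4 of day 1, and at 2818, 1746, 2143 and 2652 in batches 1 to 4 of day 5. Every day 5 library lay far above every day 1 library, and the day 1 libraries of batches 3 and 4 were the lowest. The mean went from 125 ± 68.8 to 2340 ± 489, an 18.7-fold ratio of means, or 4.35 on the log2 scale (SE 0.37, adjusted p = 1.34e-05 by limma). The lowest day 1 value still rested on 60 reads.

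inx-14, the obligate partner in both germline hemichannels, lies elsewhere on the same chromosome (WBGene00002136; I, 7350309 to 7352235, minus strand). Day 1 libraries had 461, 399, 236 and 236, and day 5 libraries had 3434, 2219, 2624 and 3279. The groups were well apart, with the lower day 1 values again in batches 3 and 4. Its mean rose from 333 ± 115.2 to 2889 ± 568, an 8.68-fold ratio, or 3.16 on the log2 scale (SE 0.27, adjusted p = 1.43e-05 by limma). Of its exonic bases 78 are shared with kbrl-1 on the opposite strand, and no strand marking is stated for the libraries, so reads in that stretch could belong to either gene.

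inx-21, the partner of INX-14 in the proliferation channel, rose least of the 5 innexins. It starts 97 bases after the end of inx-22 on the same strand (WBGene00002143; I, 3611942 to 3618317). It was at 392, 341, 452 and 236 at day 1 and at 1061, 926, 945 and 1151 at day 5. The groups did not overlap, and here the day 1 library of batch 3 was the highest of its age and not among the lowest. The mean went from 356 ± 91.4 to 1021 ± 105, a 2.87-fold ratio, or 1.55 on the log2 scale (SE 0.23, adjusted p = 0.000302 by limma).

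The neighbours inx-21 and inx-22 thus changed unequally, and this could be tested within libraries, where the size factor nearly cancels. The ratio of inx-21 to inx-22 counts was 1.82, 2.40, 6.85 and 3.05 in the day 1 libraries and 0.377, 0.530, 0.441 and 0.434 in the day 5 libraries. All day 1 libraries had more inx-21 than inx-22 reads, and all day 5 libraries had fewer. On the log2 scale the ratio went from 1.62 ± 0.82 to -1.18 ± 0.20 (n = 4), a difference of -2.79. The exact two-sided permutation test gave p = 0.0286, the smallest that 4 against 4 libraries can give, and adjusted p = 0.0429 over the 6 pairs tested. Of those pairs 4 had this smallest p, which sets the adjusted value. The test ignores the pairing by batch, and with sign flips within batches the design cannot reach 0.05.

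The sheath innexins rose as well, inx-8 more than its neighbour inx-9. inx-8 (WBGene00002130; IV, 11673843 to 11675635, plus strand) was at 359, 373, 234 and 168 at day 1 and at 2366, 2095, 1864 and 2349 at day 5. The day 5 libraries were close to each other and all above the day 1 libraries. Its mean rose from 284 ± 99.2 to 2169 ± 238, a 7.65-fold ratio, or 2.998 on the log2 scale (SE 0.27, adjusted p = 1.80e-05 by limma).

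inx-9 lies 718 bases downstream of inx-8 on the same strand (WBGene00002131; IV, 11676354 to 11678497) and encodes a closely related protein, and the proteins are in part redundant. It was at 173, 161, 144 and 130 at day 1 and at 711, 633, 704 and 609 at day 5. These were the tightest groups of the 5 innexins, with the highest day 1 library 1.34 times the lowest and the highest day 5 library 1.17 times the lowest. The mean went from 152 ± 19.2 to 664 ± 51.1, a 4.36-fold ratio, or 2.12 on the log2 scale (SE 0.19, adjusted p = 1.87e-05 by limma). The genes are close copies, and no source used here says how reads matching both were treated, so the split of reads between them is uncertain. In addition, 62 exonic bases of inx-9 are shared with ZK792.4 on the opposite strand.

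Of the 6 ratios tested, 3 others concerned the innexins. The inx-8 to inx-9 ratio was 2.07, 2.31, 1.63 and 1.29 at day 1 and 3.33, 3.31, 2.65 and 3.86 at day 5, so that every day 5 library was above every day 1 library. Its log2 difference was 0.87 (exact permutation test, p = 0.0286, adjusted p = 0.0429). The inx-22 to inx-8 ratio, a germline against a sheath subunit, was 0.599, 0.381, 0.282 and 0.462 at day 1 and 1.19, 0.833, 1.15 and 1.13 at day 5. It too was higher in every day 5 library, with a log2 difference of 1.35 (exact permutation test, p = 0.0286, adjusted p = 0.0429). The inx-14 to inx-8 ratio did not separate the ages: it was 1.28, 1.07, 1.00 and 1.40 at day 1 and 1.45, 1.06, 1.41 and 1.40 at day 5. Its log2 difference was 0.16 (exact permutation test, p = 0.286, adjusted p = 0.343), and with 4 libraries an age a p above the threshold does not show that these genes changed alike.

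**Figure D2:**
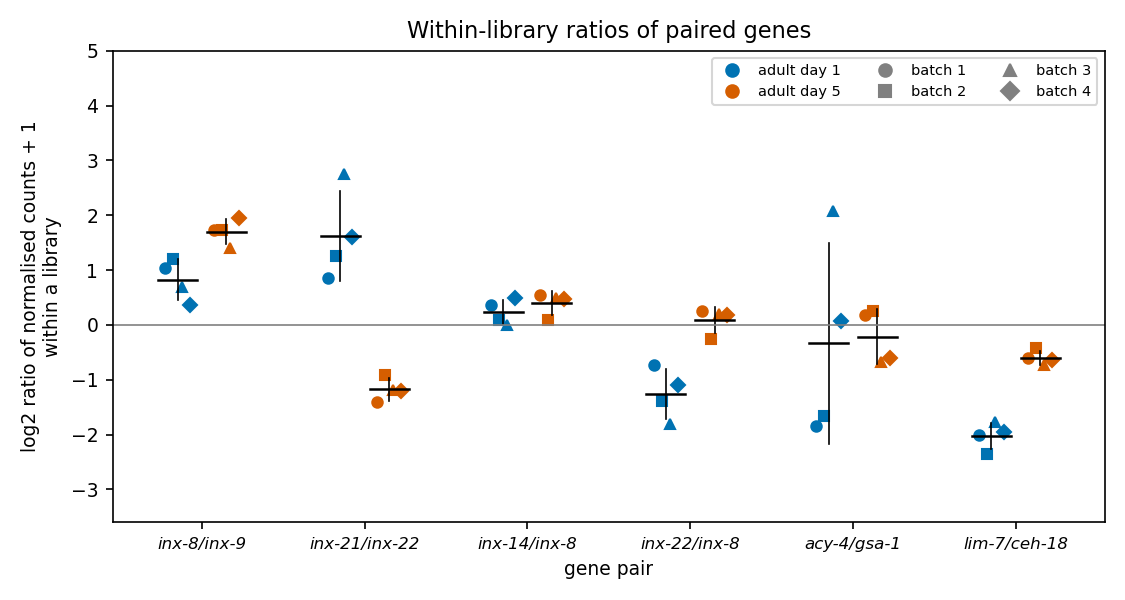
Log2 ratio of the normalised counts + 1 of 2 genes within a library, for the 6 pairs tested, with day 1 libraries in blue, day 5 libraries in orange, marker shapes for batches, and bars for the mean and SD. The ages do not overlap for inx-8/inx-9, inx-21/inx-22, inx-22/inx-8 and lim-7/ceh-18, and they overlap for inx-14/inx-8 and acy-4/gsa-1.

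Against the rest of the innexin family the gonad genes went from at most 10.7% of the innexin RNA at day 1 to at least 48.9% at day 5. By level per kb, the 5 gonad innexins made up 10.7%, 9.27%, 6.95% and 5.17% of the sum over all 25 innexins in the day 1 libraries and 56.7%, 50.2%, 48.9% and 51.2% in the day 5 libraries. The germline innexins alone went from 4.88% ± 1.53 to 33.5% ± 3.32, and the sheath innexins from 3.15% ± 0.97 to 18.2% ± 1.48 (n = 4). The shares compare the gonad genes with a family in which many other members fell.

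Of the 20 other innexins, 4 rose, 12 fell and 4 were not called, with a median log2 difference of -1.75 beside -0.06 for all genes tested. That is 80.0% called, where 55.6% of all genes were called, 28.8% higher and 26.8% lower. The rises were in inx-2, inx-3, inx-7 and inx-11. inx-2 (WBGene00002124) went from 35.3 ± 8.68 to 1493 ± 175, or 5.39 on the log2 scale (SE 0.24, adjusted p = 4.53e-07 by limma), which exceeded that of any gonad innexin. inx-3 (WBGene00002125), an innexin of the embryo and of several epithelia, went from 196 ± 79.4 to 2585 ± 346, or 3.80 on the log2 scale (SE 0.30, adjusted p = 9.32e-06 by limma). The rise was therefore not confined to the 5 gonad innexins. Those that fell included unc-7 and unc-9, which couple neurons and muscle, inx-6 and eat-5 of the pharynx, inx-16 of the intestine and inx-12 of the excretory canal, with log2 differences from -2.34 to -1.72.

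At day 1 inx-12 had the highest level per kb of the family, at 2310 ± 377, and the gonad innexins lay in the ranks from 7 for inx-21 (215 ± 55.2) to 18 for inx-22 (78.8 ± 43.3). At day 5 inx-14 was the highest at 1832 ± 360 per kb, followed by inx-8 at 1599 ± 175, inx-3 at 1583 ± 212 and inx-22 at 1472 ± 308. The ranges of inx-14, inx-8 and inx-22 overlapped at day 5, so their order is not resolved. inx-21 at 616 ± 63.7 and inx-9 at 511 ± 39.3 per kb were below those 3 in every library, and their own ranges did not overlap.

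**Figure D3:**
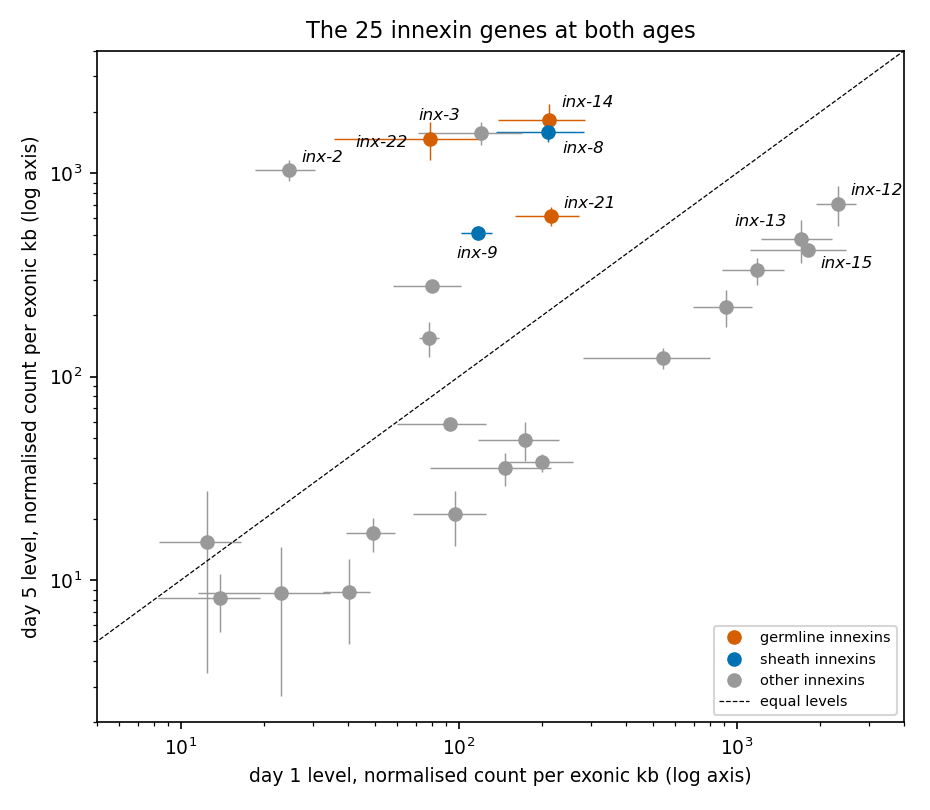
Mean level at day 5 against mean level at day 1 for the 25 innexin genes, in normalised counts per kb of exon (both axes log), with germline innexins in orange, sheath innexins in blue, the others in grey, and bars for the SD over 4 libraries. The 5 gonad innexins lie above the dashed line of equal levels, as do inx-2 and inx-3, and inx-12, inx-13 and inx-15 lie below it.

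The transcription factors of the sheath were not called higher, unlike the sheath innexins. ceh-18 (WBGene00000441; X, 3843367 to 3857797, minus strand) was at 630, 791, 438 and 620 at day 1 and at 182, 208, 242 and 208 at day 5. Every day 5 library was below every day 1 library. The mean went from 620 ± 144 to 210.0 ± 24.4, so that the day 1 mean was 2.95 times that of day 5, and the log2 difference was -1.53 (SE 0.23, limma adjusted p = 0.000329). CEH-18 is also made outside the sheath, in epidermis among other tissues, so the whole-worm value is not a sheath value.

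lim-7 (WBGene00002989; I, 5716574 to 5725809, plus strand) was at 155, 154, 128 and 159 at day 1 and at 119.3, 156, 146 and 132 at day 5. The groups overlapped. The mean was 149 ± 14.3 at day 1 and 138 ± 15.9 at day 5, or a difference of -0.11 on the log2 scale (SE 0.23, adjusted p = 0.719 by limma). Within libraries the lim-7 to ceh-18 ratio was 0.247, 0.194, 0.291 and 0.256 at day 1 and 0.654, 0.749, 0.604 and 0.636 at day 5. All day 5 libraries were above all day 1 libraries, with a log2 difference of 1.43 (exact permutation test, p = 0.0286, adjusted p = 0.0429). Both genes were among the lowest of the 10 at day 5, at 72.3 ± 8.29 per kb for lim-7 and 82.6 ± 9.60 for ceh-18, and their ranges overlapped there.

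Of 8 other LIM and POU homeobox genes, most of them neuronal, none rose and 1 fell (12.5% called, beside 55.6% of all genes), with a median log2 difference of -0.88. The gene that fell, named after its value was seen, was lin-11, a LIM factor of the vulva and uterus as well as neurons, at 164 ± 98.6 and 60.2 ± 16.5 (log2 difference -1.24, limma adjusted p = 0.0495). Its groups overlapped, and the count of genes that fell was between 0 and 4 over the alternatives tried.

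Of the sperm-signal genes, only the receptor gene was called. vab-1 (WBGene00006868; II, 4572000 to 4590970, plus strand) was at 1558, 1593, 546 and 960 at day 1 and at 6015, 4412, 4800 and 6203 at day 5. All day 5 libraries were above all day 1 libraries, and the day 1 library of batch 3 was the lowest. The mean went from 1164 ± 504 to 5357 ± 885, a 4.60-fold ratio, or 2.31 on the log2 scale (SE 0.33, adjusted p = 0.000269 by limma). At day 5 its level per kb, 1373 ± 227, had a range that overlapped that of inx-22. VAB-1 also acts in neurons and epidermis of the embryo, and 32 of its exonic bases are shared with ipla-1 on the opposite strand.

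acy-4 (WBGene00000071; V, 5624727 to 5630892, minus strand), the cyclase needed in the sheath for the sperm response, was at 221, 269, 245 and 261 at day 1 and at 260, 197, 182 and 138 at day 5. The groups overlapped through the day 5 library of batch 1. The mean was 249 ± 21.2 at day 1 and 194 ± 50.2 at day 5, or a difference of -0.39 on the log2 scale (SE 0.24, adjusted p = 0.203 by limma). It was called lower, at -0.64, once the top 1% of genes was kept out of the scaling, which moved the median of all genes by -0.23 (limma adjusted p = 0.0365). On the opposite strand acy-4 shares 111 exonic bases with the noncoding T01C2.3, which was not analysed here, and 23 with M03E7.1.

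gsa-1, the stimulatory G protein alpha subunit, which is used in neurons and muscle as well as the sheath, had the widest spread of the 10 genes (WBGene00001745; I, 1068484 to 1074343, plus strand). It was at 799, 856, 57.2 and 247 at day 1 and at 230, 165, 293 and 211 at day 5. The day 5 libraries lay inside the range of the day 1 libraries, where the highest value was 14.95 times the lowest. The mean was 490 ± 398 at day 1 and 225 ± 53.1 at day 5. The difference of the mean log2 values was -0.51 (SE 0.75, adjusted p = 0.594 by limma), which is smaller in size than the means alone would give. The count tests edgeR and DESeq2 gave log2 differences of -1.18 and -1.11 for gsa-1, and neither called it. Within batches the difference was -1.79, -2.37, 2.34 and -0.23 in batches 1 to 4, above 0 in batch 3 only. The day 1 values differed more between batches than the day 5 values did. With day 1 batch 3 left out it was called lower at -1.33 (limma adjusted p = 0.0255). With day 1 batches 1 and 2 left out it was 0.88 and not called (limma adjusted p = 0.162). The SD of gsa-1 at day 1 was 1.82 on the log2 scale, and 2.79% of the genes with a mean of at least 100 had one as large. The acy-4 to gsa-1 ratio followed it, at 0.277, 0.315, 4.29 and 1.05 at day 1 and 1.13, 1.19, 0.622 and 0.656 at day 5. Its log2 difference was 0.12 (exact permutation test, p = 0.886, adjusted p = 0.886).

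**Figure D4:**
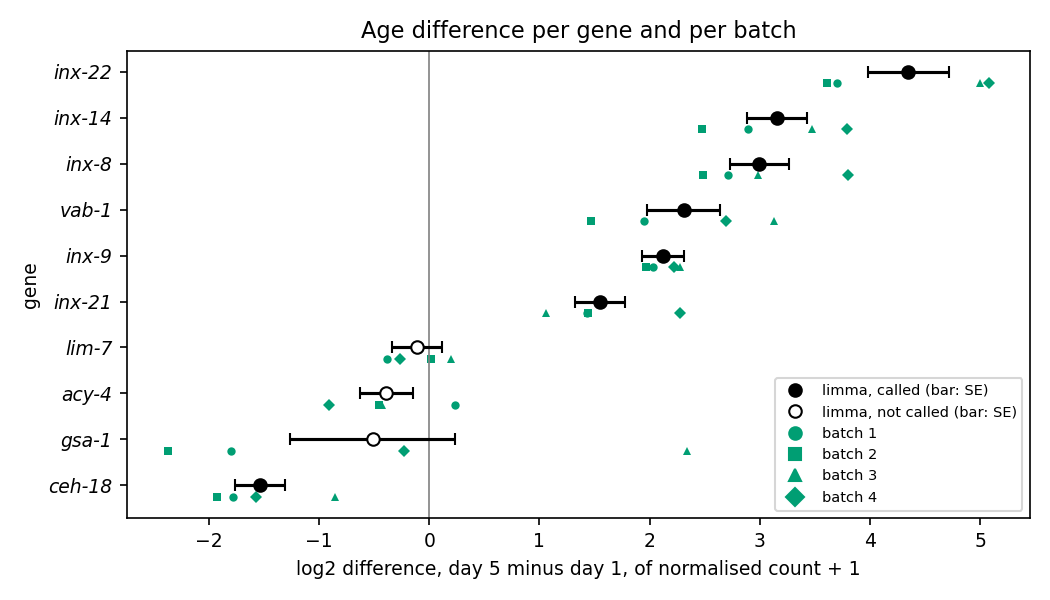
Log2 difference, day 5 minus day 1, of the normalised count + 1 for each gene: black circles are the limma estimates with SE, filled where the gene was called, and green markers are the differences within each labelled batch. All 4 batches are above 0 for the 5 innexins and vab-1 and below 0 for ceh-18, whereas lim-7, acy-4 and gsa-1 have batches on both sides.

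Low values in day 1 batch 3 were not limited to gsa-1. Among 16 other genes of the G protein and protein kinase A pathway, 10 (62.5%) had their lowest day 1 value in that library, against 33.2% of all genes tested. The share was higher still in the lists described below, at 80.0% for the Eph receptor pathway, 75.0% for sheath contraction, 71.4% for the oocyte response and 69.2% for the somatic gonad, and it held for 11 of the 20 other innexins and 2 of the 8 LIM and POU genes. It also held for 5 of the 10 genes described here, so a low batch 3 was not particular to the G protein genes. The summed level of those 16 was 29133, 31937, 10965 and 20101 in batches 1 to 4. egl-30, the Gq alpha subunit, was at 4637, 5146, 734 and 2560 at day 1, and kin-2, the regulatory subunit of protein kinase A, at 3789, 4409, 820 and 2216. These 2 were picked after their values were seen. The sperm markers summed to 5716, 3521, 385 and 524 in day 1 batches 1 to 4, high in the same batches as gsa-1 and low in the same ones. The larval moult markers summed to 84083, 74832, 22906 and 52445, and the oocyte markers to 4849, 3524, 1461 and 1569. The sums of the pharyngeal, body muscle and neuronal markers were also lowest in batch 3, the pharyngeal one at 9563 against 19886 to 29401, and that of the yolk genes was lowest in batch 4. The part of these differences in the gsa-1 values was not tested.

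Of those 16 pathway genes, 4 rose, 7 fell and 5 were not called (68.8% called beside 55.6% of all genes), with a median log2 difference of -0.44. The 3 other adenylate cyclases were called lower and acy-4 was not, a difference that was not itself tested. acy-3 (WBGene00000070) went from 798 ± 165 to 179 ± 40.8, or -2.16 on the log2 scale (SE 0.25, adjusted p = 8.10e-05 by limma), while acy-1 and acy-2 were at -1.35 and -1.40. gpc-1 (WBGene00001681), a G protein gamma subunit of sensory neurons, went from 79.5 ± 20.2 to 28.2 ± 6.43, or -1.45 on the log2 scale (SE 0.34, adjusted p = 0.00448 by limma). The genes that rose were ric-8, rgs-7, goa-1 and sacy-1. goa-1 encodes the inhibitory alpha subunit that opposes GSA-1 in oocyte maturation and went from 2707 ± 1049 to 5034 ± 1063, with overlapping groups. sacy-1 encodes a helicase that restrains maturation in the germline, and it went from 853 ± 64.5 to 1754 ± 436.

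Of 15 genes of the Eph receptor pathway 8 rose, 1 fell and 6 were not called, with a median of 0.86. The 60.0% called is near the 55.6% of all genes, of which 28.8% were called higher. efn-3 (WBGene00001164), an ephrin ligand, was at 14.3, 0.973, 0 and 0 at day 1 and at 29.3, 47.5, 34.5 and 60.8 at day 5 (log2 difference 4.18, SE 0.84, limma adjusted p = 0.00203). That size rests on day 1 libraries of few or no reads and ranged from 2.67 to 6.05 over the alternatives tried. efn-2 (WBGene00001163), another ephrin, fell from 680 ± 244 to 123 ± 45.9, or -2.47 on the log2 scale (SE 0.36, adjusted p = 0.00032 by limma). dab-1, stam-1 and ran-1, adaptor, endocytic and nuclear transport proteins linked to VAB-1 trafficking in oocytes, were called higher at 2.10, 1.76 and 0.91. The 6 genes not called included unc-43, nmr-1 and the ephrin gene vab-2, at -0.66, 0.61 and -0.43.

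Of 16 genes of sheath contraction 1 rose, 8 fell and 7 were not called, with a median of -0.83. The 56.2% called is near the 55.6% of all genes, of which 26.8% were called lower. All 10 body muscle markers fell in the same libraries, and unc-54 and myo-3 are in both this list and those markers. The one that rose was lin-3 (WBGene00002992), the epidermal growth factor that oocytes send to the sheath, which went from 152 ± 82.4 to 1204 ± 242, or 3.14 on the log2 scale (SE 0.40, adjusted p = 0.000141 by limma). Its receptor gene let-23 was at 363 ± 130 and 336 ± 102 and was not called. mup-2 (WBGene00003495), a troponin T of body wall and sheath, went from 19693 ± 3185 to 3567 ± 1437, or -2.53 on the log2 scale (SE 0.27, adjusted p = 5.16e-05 by limma). Among the other genes that fell, unc-54, myo-3, unc-52 and unc-60 are chiefly genes of body wall muscle. lfe-2 and ipp-5, which damp inositol trisphosphate signalling in sheath and spermatheca, fell by 0.80 and 1.09 on the log2 scale. itr-1, the receptor through which inositol trisphosphate releases calcium, fell by 0.99 with overlapping groups (limma adjusted p = 0.0427).

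Genes of the oocyte response rose almost throughout. Of 14 genes 12 rose, none fell, and let-60 and mek-2 were not called, with a median of 2.87. The share called was 85.7%, beside 55.6% of all genes. The list was chosen with earlier results of these data known, so this share is a description only. puf-5 (WBGene00004241), a translational repressor of oocytes, went from 102 ± 73.3 to 22337 ± 5510, or 8.01 on the log2 scale (SE 0.46, adjusted p = 1.87e-06 by limma). oma-2 (WBGene00003865), needed for oocyte maturation, went from 203 ± 68.2 to 13414 ± 2938, or 6.07 on the log2 scale (SE 0.26, adjusted p = 4.53e-07 by limma). Both differences are larger in size than that of any of the 10 genes described here. Set against the summed oocyte markers of the same library, inx-22 was 4.03 to 4.94% of that sum at day 1 and 1.53 to 1.66% at day 5, and inx-14 was 9.51 to 16.1% and 1.87 to 2.03%. Relative to that sum all 10 genes were lower in every day 5 library than in any day 1 library. The sum itself went from 2851 ± 1635 to 148565 ± 33616 (n = 4), a larger rise than that of any of the 10 genes. Lower shares follow from that rise and say nothing further about the genes. oma-1, oma-2 and puf-5 are in both this list and the marker sum.

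Other somatic gonad and spermatheca genes had no common direction. Of 13 listed genes 4 rose, 3 fell and 6 were not called, with a median of 0.57. The 53.8% called is near the 55.6% of all genes. sys-1 (WBGene00006379), a beta-catenin of gonad precursors that also acts in the embryo, went from 235.0 ± 41.3 to 1125 ± 99.6, or 2.27 on the log2 scale (SE 0.19, adjusted p = 1.33e-05 by limma). hnd-1 (WBGene00001981), a factor of the embryonic mesoderm and gonad precursors, had 1 read in all day 1 libraries together and was at 23.6, 47.5, 35.4 and 39.8 at day 5. ipla-1 and pop-1 also rose, and unc-130, gon-1 and mig-6 fell. fkh-6, sth-1, nhr-6 and fln-1, genes of sheath and spermatheca, were not called. The highest day 1 library was 7.51 times the lowest for fkh-6 and 11.8 times for sth-1, so the lack of a call there shows little. fln-1, the filamin of the spermatheca, was at 12170 ± 4687 and 11827 ± 1742.

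For each gene the closest profile was sought among 14515 named genes with a mean of at least 10, by the root mean square distance between log2 profiles over the 8 libraries after each was centred on its own mean. The presenilin gene hop-1 was nearest to inx-14, at a distance of 0.0456, and went from 107 ± 40.5 to 912 ± 163. The synaptonemal complex gene syp-3 was nearest to inx-21, at 0.0519, and syp-3 also had its highest day 1 value in batch 3, 304 against 167 to 273. The germline repressor pie-1 was nearest to inx-22, at 0.137, the heparan sulfate sulfotransferase gene hst-1 to inx-9, at 0.117, and F07H5.10 to inx-8, at 0.155. F13B12.6 was nearest to vab-1, at 0.0755, and the kinase gene ckk-1 to ceh-18, at 0.122. The phospholipase C gene plc-4 was nearest to acy-4, at 0.0885, and Y62E10A.20 to lim-7, at 0.0763. The neuronal calcium channel gene unc-2 was nearest to gsa-1, at 0.208, and was at 645, 786, 46.2 and 173 at day 1 and at 228, 177, 221 and 213 at day 5. These distances describe 8 libraries that share ages and batches.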

How the data were processed

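The authors deposited 1 table, named as FPKM, of 17076 genes in 8 libraries. HISAT2 and HTSeq, with no version, and the genome build WBcel235 are named in the submitters' processing notes. The deposited values are a signal: 100% of them were whole multiples of 1 step per library within 0.001 reads, so they hold reads scaled by a library factor and not corrected for length.

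Members and lists were chosen with earlier results of these data known. Gene IDs were matched to symbols through a name table (16887 matched) and to annotation release 115 of WBcel235 (17072 matched), the source of coordinates, counted from 1, and exon lengths. The list genes efn-1 and pqn-19 appear there as vab-2 and stam-1, and ehn-3 was not analysed here. Genes with a mean of at least 1 (16739) entered limma 3.58.1 (R 4.3.3) as log2(value + 1), with age as the sole covariate, a variance trend and Benjamini-Hochberg adjustment. As alternatives, edgeR 4.0.16 and DESeq2 1.42.0 tested the read counts recovered from the steps. Simulated data were used to test the main limma fit, the default edgeR fit and DESeq2, and not the other alternatives or the ratio test. In the simulation few genes changed, in either direction, and all others had equal means at both ages. The real data, with 55.6% of genes called, differ from that, so the simulation does not show how the fits behave here. Ratios were compared by exact permutation with scipy 1.17.1. Named genes were the 10 members, the 2 largest called differences with non-overlapping groups in each pathway list, and the gene nearest to each member by profile. Others are named as members of a list described by count. Copies made by PCR and separate molecules look alike in these counts.

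The labels give batches 1 to 4 with a library of either age in each, which pairs the libraries. Deviations from the group mean correlated across genes at -0.22, 0.24, -0.09 and -0.02 within batches 1 to 4. No block was used in the limma model. Other alternatives were pseudocounts, low-value filters, scalings, and libraries or batches left out.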

Additional observations from a re-analysis of the deposited data

Results flagged for a closer look

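Of 32 groups of 4 libraries examined for a library apart from the rest (each gene and each tested ratio at each age), 3 had one, where chance gives about 1 in 20. lim-7 at day 1 was flagged because the library of batch 3, at 128, lay below the other 3 at 154 to 159, a gap of 0.832 of the whole range. The inx-14 to inx-8 log2 ratio at day 5 had a gap of 0.876 of the range and the inx-22 to inx-8 log2 ratio a gap of 0.851, both because the library of batch 2 lay below the others. These ratios were 1.06 and 0.833 there, against 1.40 to 1.45 and 1.13 to 1.19 in the other 3. Both pairs share inx-8 and the same library, so they are not separate observations.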

How the results depend on the processing

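All 27 alternatives called the 5 innexins and vab-1 higher and ceh-18 lower, and none called lim-7; edgeR, DESeq2 and both fits with the replicate block changed no call among the 10 genes. Log2 differences ranged from 3.71 to 4.99 for inx-22, 2.73 to 3.59 for inx-14, 1.301 to 1.72 for inx-21, 2.56 to 3.44 for inx-8, 1.87 to 2.27 for inx-9, 1.75 to 2.87 for vab-1 and -1.78 to -1.31 for ceh-18. acy-4 was called, at -0.64, when scaled without the top 1% of genes. gsa-1 was called at -1.33 without the day 1 library of batch 3, at -1.46 without batch 3 at both ages and at -1.91 without day 1 of batches 3 and 4; it turned to 0.11 without batch 2 at both ages and to 0.88 without day 1 of batches 1 and 2, not called. With single libraries left out it ranged from -1.33 to -0.033. In consequence 2 genes and not 1 were called lower without the top 1% of genes, without batch 3, without its day 1 library or without day 1 of batches 3 and 4 (leaving out single libraries, 1 to 2). Under the same settings 2 genes of the Eph receptor list fell in place of 1 (1 to 2 with single libraries left out). Genes of the G protein list that fell numbered 4 without batch 2, and genes of sheath contraction that rose 4 without day 1 of batches 1 and 2, and 1 to 2 with single libraries left out. LIM and POU genes that fell numbered 0 with pseudocount 0.1, no filter, fixed-sum or median-of-ratios scaling, the replicate block in limma or edgeR, or without batch 1, 2 or 4. They numbered 2 with pseudocount 5, DESeq2 or without day 1 of batches 3 and 4, 4 without the top 1% of genes, and 0 to 2 with single libraries left out. unc-2 turned to 0.17 and 0.27 without the day 1 library of batch 1 or 2, to 0.13 and 0.35 without those batches, and to 1.21, called higher, without both day 1 libraries; without day 1 of batches 3 and 4 it was called lower at -1.77. It ranged from -1.09 to 0.27 with single libraries left out. The cause of these changes was not tested. Scaling without the top 1% moved the median of all genes by -0.23, edgeR by -0.17 and DESeq2 by -0.13. Of all calls, 44.2% were upward under the first of these and 51.8% in the main model. The 6 ratios kept their side of the threshold with pseudocounts 0.1 and 5. With a library left out or with sign flips within batches as the replicate block, the design cannot reach 0.05, so only values were compared: they ranged from 0.72 to 1.00 for inx-8/inx-9, -3.05 to -2.42 for inx-21/inx-22, 1.17 to 1.52 for inx-22/inx-8 and 1.32 to 1.51 for lim-7/ceh-18.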
